A study of Homo sapiens with 6 samples.

Results

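The ERBB receptors and the EGF-family ligands were examined in UE7T-9 cells that overexpress SHC4 and in their controls. The members were 3 receptor genes (EGFR, ERBB2 and ERBB3) and 7 ligand genes (HBEGF, TGFA, AREG, EREG, BTC, EGF and NRG1), 10 of the 28181 genes in the files. The list of names was selected on measured values, the levels of these genes in UE7T-9 SHC4 and UE7T-9 Cont, so their values in that contrast are given as a description, and each adjusted p places a member among all genes tested without being independent evidence for it. All 10 passed the filter of a mean normalized count of at least 1.

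The ERBB receptors are tyrosine kinases that pair when an EGF-family ligand binds, and the phosphorylated tail then recruits adaptors such as the SHC proteins, which lead to Ras and ERK. The ligands are made as membrane proteins and are released by ADAM sheddases. HBEGF, TGFA, AREG, EREG, BTC and EGF bind EGFR (BTC, HBEGF and EREG bind ERBB4 as well), NRG1 binds ERBB3 and ERBB4, and ERBB2 has no ligand of its own. In mesenchymal stromal cells EGFR ligands are known as growth and motility factors, and SHC4 (also called RaLP or ShcD) is an adaptor of the SHC family.

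UE7T-9 cells are human mesenchymal stem cells of bone marrow, made immortal by hTERT and the E7 gene of human papillomavirus. UE7T-9 SHC4 carried a lentiviral vector that expresses SHC4 from a CMV promoter with puromycin resistance. For UE7T-9 Cont (3 libraries, as in UE7T-9 SHC4) the study's methods describe the same vector with GFP, whereas the labels call these samples nontarget and wild type. Both groups were maintained in DMEM with serum, and their RNA was sequenced on a NovaSeq system. The sample titles call the libraries of a group (3 each) biological replicates. No source used here says whether they came from separate cultures or clones, so that p-values measure only the spread between these libraries.

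Each value below is a normalized count, the number of reads of a gene divided by a size factor of the library. The depth was 18144993 to 27721397 reads per library, and 3 reads corresponded to a normalized count of 2.50 to 3.53. SHC4, the overexpressed gene, had 56.5, 157 and 130 in the controls, against 134870, 119166 and 155006 in the overexpressing libraries. UE7T-9 Cont replicate 1 stood apart from the other controls. Its Pearson correlation across genes was 0.975 with UE7T-9 SHC4 replicate 1, compared with 0.967 and 0.962 with UE7T-9 Cont replicates 2 and 3. The mesenchymal markers were all in the files and their summed normalized count was 627765 in that library, compared with 266849 and 209055 in the other controls and 383331 to 570277 in UE7T-9 SHC4. COL1A1 and COL1A2 carried that sum (315042 and 238109 in UE7T-9 Cont replicate 1), whereas NT5E was lower there (13089) than in the other controls (22364 and 20649). Results are therefore given with and without UE7T-9 Cont replicate 1.

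Most EGF-family ligands had lower means in UE7T-9 SHC4, by the widest margin among EGFR ligands. Mean HBEGF was 7.22-fold lower, AREG 7.13-fold, TGFA 4.79-fold and EREG 3.42-fold, while EGFR itself had nearly the same mean in both groups (5020 and 4981). The comparison used limma on log2(normalized count + 1), with calls at a false discovery rate of 0.05 and a fold change over 2. Limma called 0 of the 10 members, as did edgeR on the recovered reads. The unadjusted limma p was below 0.05 for 7 of the 10, against 3323 of the 23040 genes tested. DESeq2 on the recovered reads called 3 ligands lower (HBEGF, TGFA and AREG) and no member higher. Over all genes, limma called 0.0521% higher and 0.00868% lower, edgeR 0.0568% and 0.00631%, and DESeq2 1.05% and 1.15%. Without UE7T-9 Cont replicate 1, limma called 4 members lower (EREG joined the other three) and 1 higher (ERBB3), against 1.47% and 1.59% of all genes, and DESeq2 called the same numbers against 2.6% and 2.97%. Fewer cells that express a gene and less RNA per cell cannot be told apart in these bulk samples.

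**Figure D1:**
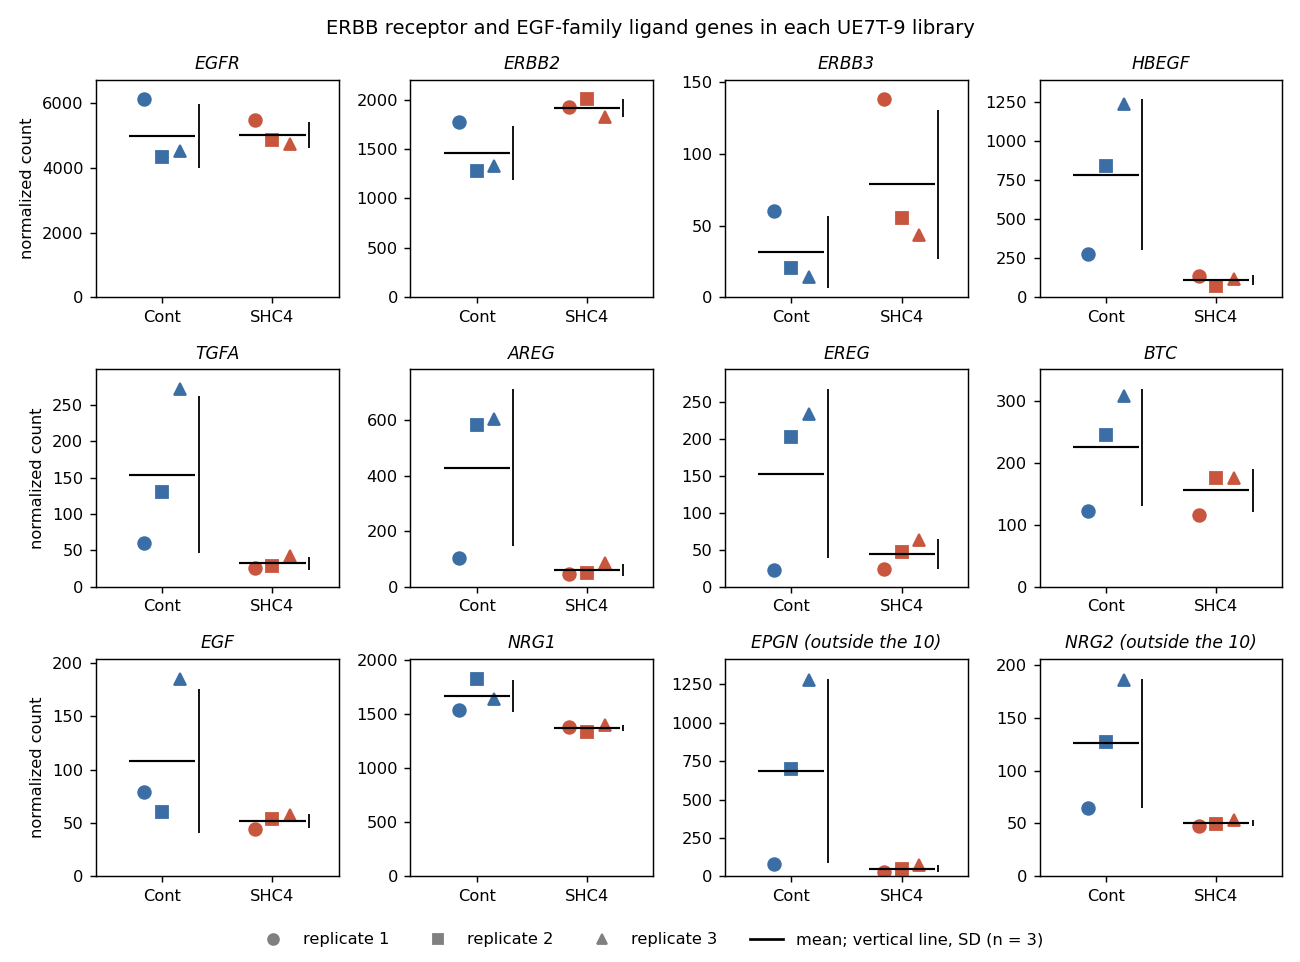
Normalized count of the 10 members and of EPGN and NRG2 (vertical axes, linear, from 0) in each library, with UE7T-9 Cont in blue and UE7T-9 SHC4 in orange; horizontal bars are means and vertical lines are SD (n = 3). For HBEGF, TGFA, AREG and EPGN the 3 UE7T-9 SHC4 libraries sit under the lowest control, which is UE7T-9 Cont replicate 1 in each case.

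HBEGF encodes heparin-binding EGF-like growth factor (ENSG00000113070, chromosome 5, 140332843 to 140346631, minus strand in GENCODE 29 on GRCh38). Its normalized count was 277, 839 and 1233 in the control replicates 1, 2 and 3, against 136, 71.6 and 118 in those of UE7T-9 SHC4. The groups did not overlap, and the lowest control was 2.03-fold above the highest UE7T-9 SHC4 library. The limma log2 fold change was -2.64 (SE 0.48, adjusted p = 0.1), and that of DESeq2 was -2.85 (SE 0.44, adjusted p = 1.5e-07). Without UE7T-9 Cont replicate 1 it was -3.27 by limma (adjusted p = 0.000707). HBEGF was the member with the lowest adjusted p in limma, and it was called by DESeq2 whichever of the 6 libraries was left out.

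AREG encodes amphiregulin (ENSG00000109321, chromosome 4, 74445134 to 74455009, plus strand). It was at 102, 580 and 602 in UE7T-9 Cont, against 44.8, 49.1 and 86.2 in UE7T-9 SHC4. The groups did not overlap, but UE7T-9 Cont replicate 1 was only 1.19-fold above the highest UE7T-9 SHC4 library, whereas the other controls were far above it. By limma the log2 fold change was -2.50 (SE 0.61, adjusted p = 0.164) and -2.84 by DESeq2 (SE 0.77, adjusted p = 0.0112). Without UE7T-9 Cont replicate 1 limma gave -3.34 (adjusted p = 0.000698), and DESeq2 still called AREG without UE7T-9 Cont replicate 1 or 2 or UE7T-9 SHC4 replicate 3, but not without any of the other 3 libraries (adjusted p up to 0.232).

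TGFA encodes transforming growth factor alpha (ENSG00000163235, chromosome 2, 70447280 to 70554193, minus strand). Its normalized counts were 60.4, 131 and 271.5 in UE7T-9 Cont, against 26.4, 28.3 and 41.9 in UE7T-9 SHC4, and again the control nearest to the UE7T-9 SHC4 libraries was replicate 1. The log2 fold change was -2.0 by limma (SE 0.48, adjusted p = 0.162) and -2.27 by DESeq2 (SE 0.50, adjusted p = 0.000801). It was -2.54 by limma without UE7T-9 Cont replicate 1 (adjusted p = 0.0065), and DESeq2 lost the call only without UE7T-9 Cont replicate 3 (log2 fold change -1.58, adjusted p = 0.056).

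EREG encodes epiregulin (ENSG00000124882, chromosome 4, 74365143 to 74388751, plus strand). Its values were 22.4, 204 and 234 in UE7T-9 Cont, against 23.7, 46.6 and 64.0 in UE7T-9 SHC4. UE7T-9 Cont replicate 1 was below every UE7T-9 SHC4 library, and the other controls were above all of them. On the log2 scale the change was -1.29 by limma (SE 0.79, adjusted p = 0.49) and -1.78 by DESeq2 (adjusted p = 0.0962). Without that control it was -2.37 by limma (SE 0.38, adjusted p = 0.0103). DESeq2 with a replicate block called EREG on all 6 libraries (-1.40, adjusted p = 0.037), but limma with that block did not (adjusted p = 0.185). The replicate numbers were not taken to pair the samples.

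EPGN encodes epigen, an EGFR ligand that is not among the members (ENSG00000182585, chromosome 4, 74308473 to 74315307, plus strand). Among family genes with reads in every control, it had the largest ratio of the highest to the lowest control (16.4). Its values were 78.0, 700.5 and 1277 in UE7T-9 Cont, against 26.4, 47.4 and 72.2 in UE7T-9 SHC4. The groups did not overlap, although UE7T-9 Cont replicate 1 was 1.08-fold above the highest UE7T-9 SHC4 library. By limma the log2 fold change was -3.17 (SE 0.86, adjusted p = 0.187) and -3.82 by DESeq2 (SE 1.03, adjusted p = 0.0108), and -4.37 by limma without UE7T-9 Cont replicate 1 (adjusted p = 0.00106). DESeq2 kept the call in 2 of 6 leave-one-out fits, those without UE7T-9 Cont replicate 1 or UE7T-9 SHC4 replicate 3.

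The sequences upstream of HBEGF, AREG and EPGN are shown because these 3 ligands had the most negative log2 fold changes of the family and differ in base composition upstream. Each line starts 250 bases before the RefSeq start (GRCh38.p14), reads 5′ to 3′ on the strand of the gene, and ends where the gene begins in RefSeq or GENCODE 29, whichever comes first. Capitals mark matches, on either strand, to AP-1 (TGANTCA), CRE (TGACGTCA), ETS (CCGGAAGT), EGR1 (GCGGGGGCG) or SP1 (GGGCGG). The lines are chr5:140346632-140346853 on the minus strand for HBEGF, and chr4:74444886-74445133 and chr4:74308220-74308469 on the plus strand for AREG and EPGN.
HBEGF: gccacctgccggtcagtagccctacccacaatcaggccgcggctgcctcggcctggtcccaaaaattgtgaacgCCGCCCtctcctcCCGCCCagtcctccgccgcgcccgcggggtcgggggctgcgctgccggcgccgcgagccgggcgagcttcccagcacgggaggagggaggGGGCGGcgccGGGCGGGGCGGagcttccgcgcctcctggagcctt
AREG: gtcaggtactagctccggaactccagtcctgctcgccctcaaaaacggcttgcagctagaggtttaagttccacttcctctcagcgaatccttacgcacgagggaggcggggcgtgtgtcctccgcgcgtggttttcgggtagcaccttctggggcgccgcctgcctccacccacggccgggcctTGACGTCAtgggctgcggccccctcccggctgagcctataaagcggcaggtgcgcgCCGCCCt
EPGN: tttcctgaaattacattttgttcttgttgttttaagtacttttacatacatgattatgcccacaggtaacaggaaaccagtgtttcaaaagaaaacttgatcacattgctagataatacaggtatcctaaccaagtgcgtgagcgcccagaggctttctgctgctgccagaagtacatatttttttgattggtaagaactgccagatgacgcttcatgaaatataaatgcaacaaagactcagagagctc
The HBEGF window of 250 bases held 5 SP1 matches and was 76.4% G and C. The AREG window (65.2% G and C) held 1 SP1 match and 1 CRE match, whose first base lay at -65 from the RefSeq start. The EPGN window was only 38% G and C and held none of the 5 motifs. The EREG window (58% G and C) held none either. Among 35116 RefSeq promoter windows of this length, SP1 was present in 42.6%, AP-1 in 6.57%, EGR1 in 4.72%, ETS in 3.42% and CRE in 1.65%. The matches describe letters only.

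BTC and EGF differed less between the groups. BTC encodes betacellulin (ENSG00000174808, chromosome 4, 74744759 to 74794686, minus strand) and was at 123, 246 and 308 in UE7T-9 Cont, against 116, 176 and 176 in UE7T-9 SHC4. UE7T-9 Cont replicate 1 lay within the range of UE7T-9 SHC4, so that the groups overlapped, and the log2 fold change was -0.46 by limma (SE 0.33, adjusted p = 0.564). Without that control it was -0.84 by limma (adjusted p = 0.0669) and -0.83 by DESeq2 (adjusted p = 0.0243), short of the fold required for a call. EGF (ENSG00000138798, chromosome 4, 109912884 to 110012266, plus strand) was at 79.0, 60.0 and 185 in UE7T-9 Cont, against 44.8, 53.3 and 57.1 in UE7T-9 SHC4. All UE7T-9 SHC4 libraries were below all controls, but by a factor of 1.05 at the nearest pair, and the log2 fold change was -0.88 by limma (SE 0.39, adjusted p = 0.344). Here UE7T-9 Cont replicate 3 and not replicate 1 was the control that stood apart.

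NRG1 encodes neuregulin 1 (ENSG00000157168) and was the most even member. Its normalized counts were 1532, 1824 and 1641 in UE7T-9 Cont, against 1379, 1333 and 1393 in UE7T-9 SHC4. The groups did not overlap, and the coefficients of variation were 8.84% (UE7T-9 Cont) and 2.27% (UE7T-9 SHC4). The log2 fold change was -0.28 by limma (SE 0.12, adjusted p = 0.322), a 1.22-fold lower mean. NRG2, another neuregulin outside the members, was at 64.3, 127 and 186 in UE7T-9 Cont, against 47.5, 49.9 and 53.6 in UE7T-9 SHC4, and DESeq2 called it lower (log2 fold change -1.32, adjusted p = 0.0287) while limma did not (-1.18, adjusted p = 0.207). On leaving out 1 library, the NRG2 call was kept only without UE7T-9 Cont replicate 1. NRG3 was at or below 3 reads in every library. NRG4 had no more than 5 reads in any library.

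Of the 7 ligand members, all 7 had a negative log2 fold change, and the groups did not overlap for 5 (HBEGF, TGFA, AREG, EGF and NRG1). Over all tested genes, 10.2% had every UE7T-9 SHC4 library below every control. The median log2 fold change was -1.29 for the 7 ligands and 0.00 for the 23040 genes tested, and without UE7T-9 Cont replicate 1 it was -2.37 and -0.01.

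**Figure D2:**
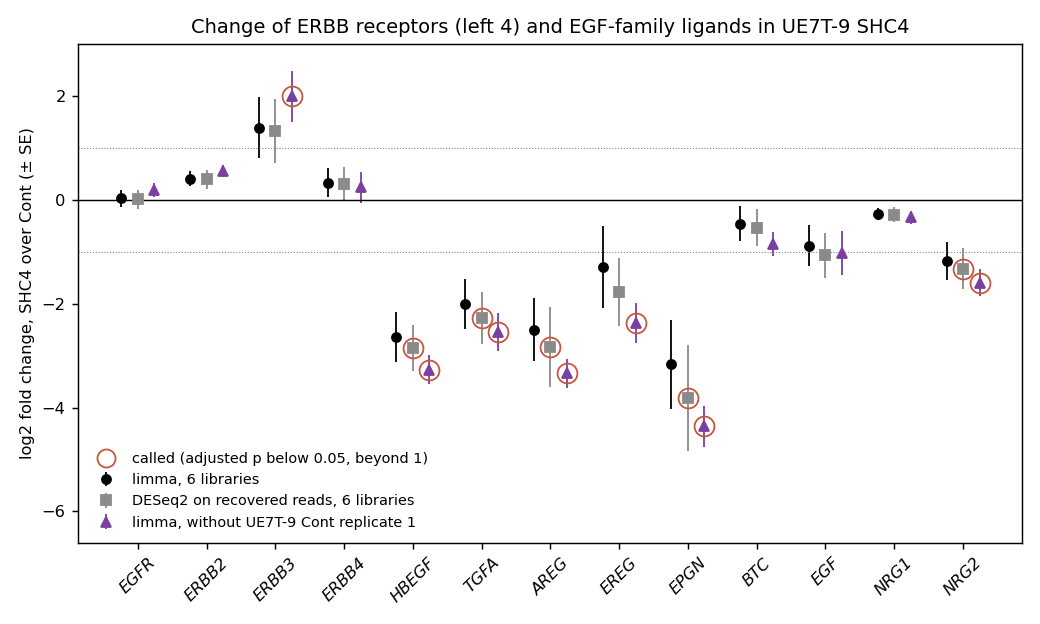
Log2 fold change of UE7T-9 SHC4 over UE7T-9 Cont (vertical axis, bars ± SE) for 4 receptor genes at the left and 9 ligand genes, by limma, by DESeq2 on the recovered reads and by limma without UE7T-9 Cont replicate 1; orange rings mark calls and dotted lines a log2 fold change of 1 and -1. HBEGF, TGFA and AREG are ringed in DESeq2 and without the control but not in limma with 6 libraries (-2.64, -2.0 and -2.50).

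The receptors did not share the pattern of the ligands. EGFR (ENSG00000146648, chromosome 7, 55019021 to 55211628, plus strand), the receptor of most of these ligands, was at 6115, 4321 and 4508 in UE7T-9 Cont, against 5471, 4861 and 4729 in UE7T-9 SHC4. The highest value of all was that of UE7T-9 Cont replicate 1, and the ranges overlapped. The log2 fold change was 0.03 by limma (SE 0.16, adjusted p = 0.959), and its sign turned under some alternatives, as with library size scaling (-0.08). The antisense gene EGFR-AS1 overlaps EGFR and was at most at 4.39 in any library.

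ERBB2 (ENSG00000141736, chromosome 17, 39687914 to 39730426, plus strand), the receptor that pairs with the others, was at 1772, 1276 and 1328 in UE7T-9 Cont, against 1925, 2004 and 1825 in UE7T-9 SHC4. Every UE7T-9 SHC4 library was above every control, as for 9.13% of all tested genes, and UE7T-9 Cont replicate 1 was the nearest. By limma the log2 fold change was 0.41 (SE 0.15, adjusted p = 0.265) and 0.56 without that control (adjusted p = 0.0281), below the fold required for a call in either fit. PGAP3 and MIEN1 overlap ERBB2 on the other strand, and the strand setting of the counting is not given in the sources used here, so reads in the shared stretches could not be told apart.

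ERBB3 (ENSG00000065361, chromosome 12, 56076799 to 56103505, plus strand), the NRG1 receptor with an impaired kinase domain, was at a low level of 60.4, 20.0 and 13.8 in UE7T-9 Cont, against 138, 54.9 and 43.1 in UE7T-9 SHC4. In both groups replicate 1 was the highest, and UE7T-9 Cont replicate 1 lay within the range of UE7T-9 SHC4. The log2 fold change was 1.39 by limma (SE 0.59, adjusted p = 0.326) and 1.99 without that control (SE 0.49, adjusted p = 0.0493). ERBB4, the receptor outside the members, was at 78.0, 126 and 69.8 in UE7T-9 Cont, against 98.4, 99.1 and 139.7 in UE7T-9 SHC4, with overlapping groups and a log2 fold change of 0.33 by limma (adjusted p = 0.632).

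Per kilobase of exon, where levels can be set side by side, EGFR was the first of the family in both groups (398 ± 78.8 in the controls and 401 ± 31.6 with SHC4, SD, n = 3). Its first place in UE7T-9 Cont depended on the length used, since per kilobase of the longest transcript EPGN (573) was ahead of EGFR (507), as it was per kilobase of coding sequence. In UE7T-9 Cont it was followed by EPGN (mean 378), AREG (260), HBEGF (259), NRG1 (147) and ERBB2 (141), and from EGFR down to ERBB2 each of these overlapped the next in its range over libraries. BTC (80.1), TGFA (31.1), NRG2, EREG (26.8) and EGF (17.6) came next, and ERBB4 and ERBB3 (3.47) were the lowest receptors. In UE7T-9 SHC4 the order was EGFR, ERBB2 (186), NRG1 (121) and BTC (55.3), and of these only BTC overlapped the gene below it, AREG. AREG (36.4), HBEGF (35.9) and EPGN (26.8) followed, with ranges that overlapped each other. ERBB3 (8.70) then overlapped ERBB4, EGF and EREG. This order too depended on the length used, since per kilobase of coding sequence NRG1 (640) was ahead of ERBB2 (509) in UE7T-9 SHC4.

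**Figure D3:**
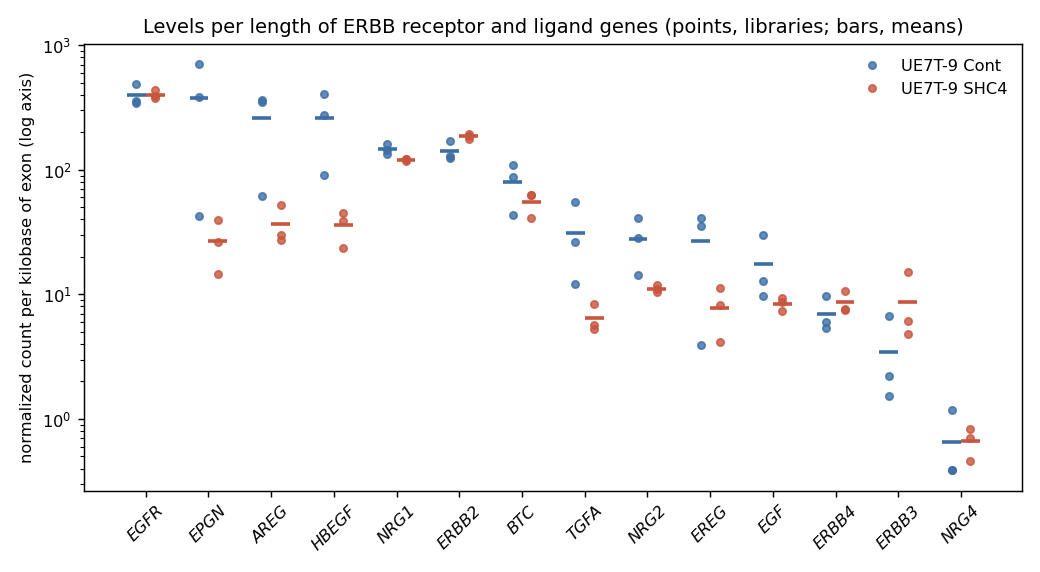
Normalized count per kilobase of exon (vertical axis, log scale) of 14 family genes ordered by their mean in UE7T-9 Cont, with a point per library and a bar at each mean; NRG3, at or below 3 reads, is not drawn. EPGN, AREG and HBEGF have control means of 378, 260 and 259, against 26.8, 36.4 and 35.9 in UE7T-9 SHC4, whereas EGFR has 398 and 401.

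The levels of the EGFR ligands (HBEGF, TGFA, AREG, EREG, BTC, EGF and EPGN) per kilobase were also added up in each library. The sum was 269, 1176 and 1713 in UE7T-9 Cont, against 145, 165 and 222 in UE7T-9 SHC4. The means were 1053 ± 730 and 177 ± 40.3 (SD, n = 3), a 5.94-fold difference, and UE7T-9 Cont replicate 1 was nearer to the UE7T-9 SHC4 libraries than to the other controls. The make-up of the sum differed as well. BTC was 16.2%, 7.43% and 6.38% of it in UE7T-9 Cont, against 28.4%, 37.9% and 28.1% in UE7T-9 SHC4, whereas EPGN was 16.0%, 32.8% and 41.1% in the controls and at most 17.9% in UE7T-9 SHC4. HBEGF was the leading ligand of UE7T-9 Cont replicate 1 (34.0%) and of UE7T-9 SHC4 replicate 1 (31.2%).

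AREG, EREG, EPGN and BTC varied together between libraries of the same group, and the other ligands did so to differing degrees. Over the 6 libraries, the Pearson correlation of deviations from the group means of log2(normalized count + 1) was 0.98 between AREG and EREG, 0.99 between EREG and EPGN, 0.97 between EREG and BTC and 0.87 between HBEGF and AREG. EGFR deviated the other way, with -0.99 against EREG and -0.96 against AREG, and ERBB2 with -0.98 against AREG. EGF was linked least, with 0.33 against AREG and -0.24 against EGFR. NRG1 had 0.77 against AREG, 0.41 against TGFA and -0.33 against EGF. In the UE7T-9 SHC4 replicates alone, HBEGF lay at 0.38, -0.54 and 0.17 from the group mean. AREG lay at -0.35, -0.22 and 0.58 there. Much of the shared variation came with UE7T-9 Cont replicate 1. On the log2 scale it lay 2.15 below the control mean in EREG, 1.68 below in AREG and 2.39 below in EPGN. It lay 0.31 above in EGFR and 0.30 above in ERBB2. UE7T-9 SHC4 replicate 1 lay the same way from its own group mean, by less, in EREG (-0.78), AREG (-0.35), EPGN (-0.75) and EGFR (0.13). In ERBB2 it lay near that mean (0.01). The 6 libraries share their cell line, and these correlations carry no test.

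Among 12677 genes with a mean of at least 50, those whose log2 values followed HBEGF most closely over the 6 libraries were STK17A (r = 0.998), GHITM (0.996) and CAPZA1 (0.996). STK17A, a serine/threonine kinase, was at 2049, 2611 and 2757 in UE7T-9 Cont, against 1765, 1480 and 1673 in UE7T-9 SHC4. Of the family, TGFA (0.961) ranked at place 219 for its likeness to HBEGF, NRG2 (0.959) at place 237 and AREG (0.956) at place 273. For EGFR the closest were the pseudogene H3P6 (r = 0.994), SH3PXD2A (0.993), which encodes a podosome scaffold, and CBX5 (0.990), which encodes a heterochromatin protein. SH3PXD2A was at 3587, 1688 and 1907 in UE7T-9 Cont, against 2825, 2120 and 2199 in UE7T-9 SHC4, highest in replicate 1 of each group like EGFR.

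EPGN, EREG, AREG and BTC lie next to each other on chromosome 4 and were the only 4 genes of the files between 74308473 and 74794686. Their limma log2 fold changes were -3.17, -1.29, -2.50 and -0.46 in the order of the chromosome. The nearest flanking genes had -0.61 (MTHFD2L, before EPGN, adjusted p = 0.366) and -0.75 (PARM1, after BTC, adjusted p = 0.525), values between those of BTC and EREG. Farther upstream lies the cluster of CXC chemokines, where CXCL5 (0 to 1.16 in UE7T-9 SHC4, so that its fitted value depends on the pseudocount) had -3.20 (limma, adjusted p = 0.116), CXCL8 -2.95 (limma, adjusted p = 0.201, DESeq2 0.000507), CXCL3 -2.35 (limma, adjusted p = 0.184, DESeq2 0.0478) and CXCL1 -0.64 (limma, adjusted p = 0.636). CXCL8 overlapped between the groups (12.7 in UE7T-9 Cont replicate 1 and 12.8 in UE7T-9 SHC4 replicate 3). CXCL3 was at only 0.83 to 5.27 in UE7T-9 SHC4. Every gene that limma tested within 600000 bases of the span from EPGN to BTC had a negative log2 fold change. CXCL2 (-0.87), CXCL6 (-0.79) and PF4V1 (-1.33) were among them, although CXCL6 and PF4V1 were at 5.89 or less in every library. Over all genes tested, 50.3% had a negative value. Whether the sizes of the changes differ between these genes was not tested.

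**Figure D4:**
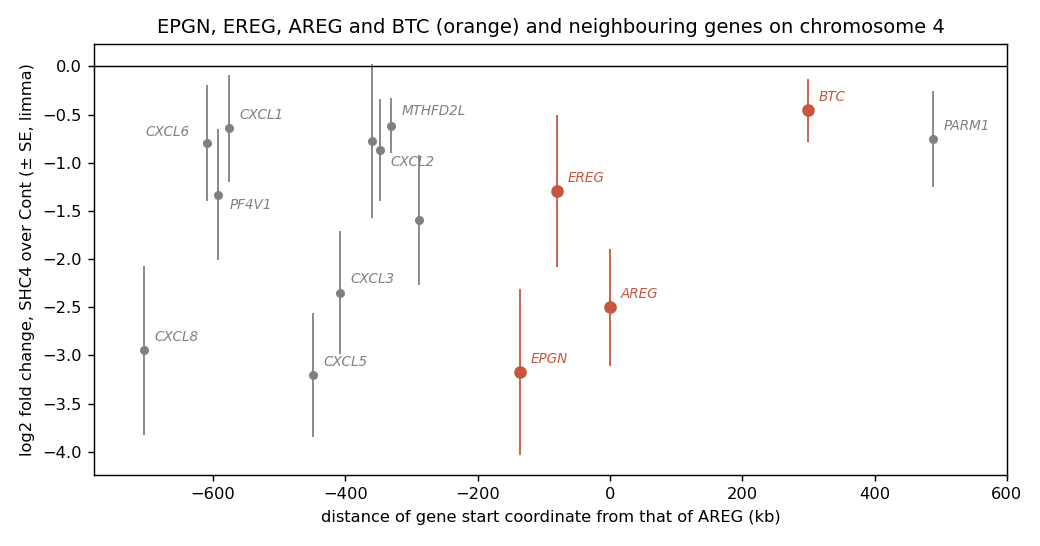
Limma log2 fold change (vertical axis, bars ± SE) of the genes within 600000 bases of the span from EPGN to BTC, against the distance in kilobases of the lowest coordinate of each gene from that of AREG (horizontal axis); ligand genes are orange, other genes grey, and genes without a symbol have no name. EPGN (-3.17), AREG (-2.50) and the chemokine genes CXCL5 (-3.20) and CXCL8 (-2.95) lie lowest, while BTC (-0.46) and the flanking genes MTHFD2L (-0.61) and PARM1 (-0.75) lie nearer to 0.

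The other genes of the pathway were taken from 4 lists. Of the ligand sheddases and their regulators, 6 of 13 had a higher and 7 a lower value, with a median log2 fold change of -0.06. TIMP3, an inhibitor of ADAM17 and of other metalloproteinases, was the only one called, at 873, 719 and 674 in UE7T-9 Cont, against 1667, 2155 and 1985 in UE7T-9 SHC4 (limma log2 fold change 1.36, SE 0.15, adjusted p = 0.0161; DESeq2 1.75e-10). TIMP3 thus rose, and its groups did not overlap. DESeq2 called it whichever library was left out, and limma only without UE7T-9 Cont replicate 1 or UE7T-9 SHC4 replicate 1 (log2 fold change 1.28 to 1.47 over the 6 fits, adjusted p up to 0.203). ADAM17, the main sheddase of TGFA, AREG and HBEGF, was at 1050, 1481 and 1434 in UE7T-9 Cont, against 1048, 1100 and 1252 in UE7T-9 SHC4 (limma log2 fold change -0.21, adjusted p = 0.581). ADAM9 had the lowest value of the list (-0.36, limma, adjusted p = 0.352).

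Of the 30 receptor-proximal adaptors and kinases, 17 had a higher and 13 a lower value (median 0.03), and SHC4 itself was the only one called (limma log2 fold change 10.32, SE 0.32, adjusted p = 2.09e-06). SHC1, the ubiquitous SHC adaptor, had a log2 fold change of 0.06 (limma, adjusted p = 0.877). SHC3 had the lowest value (-0.71, limma, adjusted p = 0.424). Of the 17 inhibitors of the receptors, 8 were higher and 9 lower (median -0.02) with 0 called by limma or by DESeq2. The unadjusted limma p was below 0.05 for 5 of the 17, against 3323 of the 23040 genes tested. LRRK1, which takes part in EGFR trafficking, had the highest value (0.67, limma, adjusted p = 0.201) and PTPRJ, a receptor phosphatase, the lowest (-0.67, limma, adjusted p = 0.250).

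Of the 22 ERK-dependent growth factor response genes, 16 had a lower and 6 a higher value, with a median log2 fold change of -0.21 compared with 0.00 over all genes. Limma called none of them, with 7 at an unadjusted p below 0.05, against 3323 of the 23040 genes tested. DESeq2 called 3 lower, namely ETV4, an ETS factor, DUSP5, a phosphatase of ERK, and IER3, an immediate early gene. Over all genes it called 1.15% lower. ETV4 was at 115, 137 and 136 in UE7T-9 Cont, against 61.5, 35.0 and 59.4 in UE7T-9 SHC4 (limma log2 fold change -1.34, adjusted p = 0.116, DESeq2 0.00175), and here UE7T-9 Cont replicate 1 lay with the other controls. DUSP5 was at 1011, 2425 and 2874 and then at 810, 712 and 1076, and IER3 at 1553, 2652 and 1952 and then at 845, 647 and 1339. On leaving out 1 library, DESeq2 kept the ETV4 call in 4 fits, that of DUSP5 in 3 and that of IER3 in 4 of 6. All 3 calls were lost without UE7T-9 Cont replicate 2 or UE7T-9 SHC4 replicate 2, and that of DUSP5 also without UE7T-9 Cont replicate 3. Without UE7T-9 Cont replicate 1, limma called 5 of the list lower, against 1.47% of all genes. FOS had the highest value of the list (0.79, limma, adjusted p = 0.749), but it ranged from 466 to 4704 in the controls and from 893 to 10032 in UE7T-9 SHC4.

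**Figure D5:**
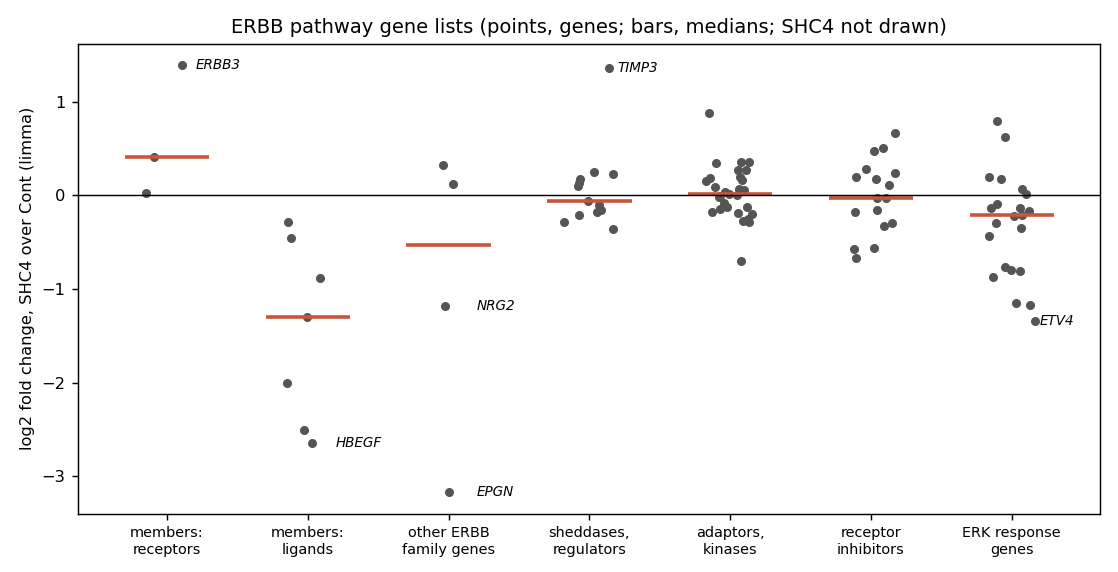
Limma log2 fold change of UE7T-9 SHC4 over UE7T-9 Cont (vertical axis) for the genes of each list (points, spread sideways at random) with the median of the list (orange bar); SHC4 itself (10.32) is not drawn. The ligand members have a median of -1.29, the ERK response genes of -0.21, and the sheddases, adaptors and receptor inhibitors of -0.06, 0.03 and -0.02.

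Markers of other cell types were read in the same libraries. Of 8 epithelial markers 6 were in the files. Their summed normalized count was 106 to 137 in the controls, against 31.6 to 94.0 in UE7T-9 SHC4. This marker sum and the EGFR ligand sum per kilobase both rose from replicate 1 to replicate 3 of the controls. Within UE7T-9 SHC4, replicate 1 had the highest marker sum (94.0) and the lowest ligand sum (145). CLDN4 (43.1), CDH1 (17.6), KRT15 (16.7) and KRT14 (14.1) carried that marker sum, at 16 to 49 reads each. Whether the marker and ligand sums are related was not tested. Of the 6 markers, 2 (KRT15 and ESRP1) had every UE7T-9 SHC4 library below every control, and the others overlapped. KRT15 (34.1, 61.2 and 82.6, then 16.7, 6.66 and 8.15) was the only one called, by DESeq2 (adjusted p = 0.000594), while the defining marker EPCAM was at 0 to 4.92 in all libraries. Of 8 leukocyte markers 6 were in the files, with sums of 230 to 410 and 262 to 321, and PTPRC was at 0 to 6.82. The 5 endothelial markers summed to 60.0 to 83.6 and 50.1 to 99.9, with CDH5 at 0 to 1.18. Of the 8 mesenchymal markers, DESeq2 called PDGFRB higher (4122, 1487 and 1678, then 6635, 5281 and 5178, adjusted p = 0.0171), in which UE7T-9 Cont replicate 1 was again the control nearest to UE7T-9 SHC4, and DESeq2 kept this call in only 1 of the 6 leave-one-out fits. The part of these differences in the ligand values was not tested.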

How the data were processed

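Total RNA from both groups (n = 3 each), grouped by sample title, was sequenced by Novogene. Each file that the authors deposited holds a signal per gene, a normalized count (reads divided by the size factor of the library). Per the labels, the submitters' processing notes name HISAT2 2.0.5, featureCounts 1.5.0-p3 and DESeq2. The genome build, annotation and strand setting are not given in the sources used here. All values (100%, tolerance 0.01 reads) were whole multiples of the value of 1 read, so reads were recovered by division, and the size factors were those of DESeq2.

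Of the 28181 Ensembl identifiers, 27968 (99.2%) had a symbol and all had a GENCODE 29 position on GRCh38, and upstream sequence came from RefSeq. The main test was limma 3.58.1 (lmFit, eBayes with trend, R 4.3.3) on log2(normalized count + 1). Genes with a mean under 1 were not tested, which left 23040, and p-values were adjusted by the method of Benjamini and Hochberg. The scale understates the change of low genes. Levels per kilobase used the union of exons. Alternatives were DESeq2 1.42.0 and edgeR 4.0.16 (quasi-likelihood) on the recovered reads, library size and TMM scaling, pseudocounts of 0.1 and 5, no filter, a minimum mean of 10, no fold threshold, a replicate block and leaving out each library. Chosen after seeing the data were DESeq2 with each library left out, with the block and without its filters. The fits were tested on simulated data.

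The members and all lists were chosen with earlier results of these data known. Named genes were the members, SHC4, the called genes and the highest and lowest gene of each list (mean of at least 50), and the 3 genes most like EGFR and HBEGF. The other family genes, ADAM17, SHC1, the neighbours on chromosome 4 and the overlapping genes were named after their values were seen. Genes near 3 reads are at the limit of the depth, and how far the depth limits the other genes was not tested.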

Additional observations from a re-analysis of the deposited data

How the results depend on the processing

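The 7 ligand members had a negative and ERBB2 and ERBB3 a positive log2 fold change in each alternative that was run. EGFR turned negative under library size scaling (-0.077, with the median over all genes moving from 0.00 to -0.10). In fits that left out 1 library EGFR ranged from -0.0676 to 0.183 by limma and was -0.0825, -0.0587 and -0.0561 in 3 DESeq2 fits. In the same fits NRG4, with few reads, ranged from -0.0839 to 0.528 by limma and was -0.20, -0.20 and -0.13 in 3 DESeq2 fits, and FOS ranged from -0.22 to 1.66 by limma and was -0.76 in 1 DESeq2 fit. The numbers of genes called higher and lower (12 and 2 in limma) were 170 and 185 by DESeq2, 139 and 159 by DESeq2 without its filters, 9 and 1 by edgeR, 19 and 5 with library size scaling, 20 and 4 with TMM, 31 and 9 without a filter, and 11 and 1 with either pseudocount. Leaving out a library gave 1 to 367 higher and 0 to 339 lower genes in limma, and DESeq2 gave 475, 82, 86, 223, 47 and 71 higher and 417, 84, 74, 195, 58 and 114 lower without UE7T-9 Cont replicates 1, 2 and 3 and SHC4 replicates 1, 2 and 3. The highest numbers were thus those without UE7T-9 Cont replicate 1. The members called lower (0 in limma) numbered 3 by DESeq2 with or without its filters, 0 to 4 in limma and 1 to 4 in DESeq2 on leaving out a library, and the members called higher 0 to 1. Without UE7T-9 Cont replicate 3, DESeq2 called only HBEGF among the members. Family genes outside the members with a negative value numbered 2, and 2 to 4 on leaving out a library. The cause of these changes was not tested. A replicate block gave 25 higher and 14 lower genes and no member in limma, and 179 and 163 genes with 4 members lower and 1 higher in DESeq2. The numbers were not taken to pair the samples: over 23040 genes the deviations of libraries with the same number correlated at 0.148, 0.013 and -0.00696. Over the 12678 genes whose mean reached 50 they did so at 0.409, 0.146 and 0.149, but UE7T-9 Cont replicate 2 was closer to UE7T-9 SHC4 replicate 3 (0.517) than to its own number. Whether limma called any member turned on UE7T-9 Cont replicate 1, with 0 called in the fit of all libraries and 4 lower and 1 higher without it.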
